A study of Mus musculus with 25 samples.

Results

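Somatic cell nuclear transfer (SCNT) embryos that had received mRNA for a histone H3 lysine 9 (H3K9) demethylase were compared with embryos from *in vitro* fertilization (IVF), to find which genes still differed from the fertilized state after the injection. The comparison pooled 2 libraries of SCNT-*Kdm3a* embryos and 2 libraries of SCNT-*Kdm4d* embryos and set these 4 Kdm-injected libraries against 4 IVF libraries. It used 8 of the 25 libraries of the study, and 2 libraries of control SCNT embryos without mRNA served to sort the differences. Members were genes on autosomes that averaged 1 read or more over the libraries, which gave 25792 of the 55375 genes in the table, and *Kdm3a* and *Kdm4d* were left out because the injected mRNA itself is counted on them. Of these genes, 3597 differed between Kdm-injected and IVF embryos.

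All embryos were wild type and were collected as late two-cell embryos 28 to 29 h after insemination or activation, in pools of 5 to 10. For IVF, oocytes of B6N females were fertilized with sperm of DBA/2 males. The SCNT embryos of this comparison came from enucleated BDF1 oocytes and nuclei of BDF1 cumulus cells, the somatic cells that surround the oocyte, and cytochalasin B, which blocks actin polymerization, was present during enucleation and activation. SCNT-*Kdm3a* and SCNT-*Kdm4d* embryos received 10 pL of mRNA at 1500 ng/µL 5 to 6 h after activation (the concentration as the sample labels give it), and control SCNT embryos received none. The females that gave the oocytes were 4 to 20 weeks old by the labels. The strain of the oocyte, the parental origin of the genome and the sex of the embryos changed together with IVF and SCNT, so the share of each in a difference cannot be told apart. The aligner accepted no mismatch to the C57BL/6 genome, and the part that this had in values of DBA/2 alleles was not tested. In pools of embryos, fewer embryos that express a gene and less RNA per embryo cannot be told apart.

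At the late two-cell stage the mouse embryo clears RNA that was stored in the oocyte and starts its major wave of transcription. H3K9 methylation marks silent chromatin, and methylation carried over from the donor nucleus holds many genes of this wave silent in cloned embryos. KDM4D removes the tri- and dimethylated forms of the mark, and KDM3A the di- and monomethylated forms. Genes without this mark in the donor nucleus can be held by other means, such as DNA methylation at germ-line genes and imprinted genes or Polycomb marks at developmental regulators.

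Reads on genes ranged from 6662727 to 16791202 in the IVF libraries, from 13240378 to 21188688 in the Kdm-injected libraries, and were 9136103 and 11878059 in the control SCNT libraries. Levels are given as CPM, the reads on a gene scaled to the library's TMM-normalized total, and 3 reads correspond to a median of 0.226 CPM in Kdm-injected and 0.202 CPM in IVF libraries. A gene was called when edgeR's quasi-likelihood test gave a Benjamini-Hochberg adjusted p under 0.05 with a fold change over 2. *Kdm3a* reached 3466 and 3116 CPM in the SCNT-*Kdm3a* libraries, against 181 to 190 CPM in IVF libraries. *Kdm4d* reached 18520 and 12520 CPM in the SCNT-*Kdm4d* libraries, against 1.36 to 4.68 CPM in IVF libraries. The injected mRNA was therefore present in the libraries labelled with it. The two-cell markers *Zscan4d*, *Zfp352*, *Obox3* and *Dppa3* were detected in all 8 libraries. The later-stage marker *Gata6* lay between 0.0524 and 2.31 CPM in Kdm-injected and between 0.628 and 1.36 CPM in IVF libraries.

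Of the 3597 genes called, 1573 were higher and 2024 were lower in Kdm-injected than in IVF embryos, which is 6.1% and 7.85% of all genes tested. The median log2 fold change over all genes was −0.06. When a gene had to pass with each mRNA by itself, 1604 genes remained, 888 higher and 716 lower, so the balance of the directions depended on the pooling. SCNT-*Kdm3a* embryos alone gave 3304 genes against IVF and SCNT-*Kdm4d* embryos alone gave 2395. Control SCNT embryos differed from the same IVF libraries at 3866 genes (15% of those tested), 2095 higher (8.12%) and 1771 lower (6.87%). Kdm-injected embryos differed from control SCNT embryos at 1240 genes (4.81%), 592 higher (2.3%) and 648 lower (2.51%). Without the first control SCNT library this count was 321, 160 higher and 161 lower (1414 residual genes), so the counts of changes from the control rest largely on that library.

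The differences were sorted by the control SCNT embryos. A difference was named residual when control SCNT embryos were also called against IVF in the same direction, which held for 1823 genes (50.7% of those called). It was named newly arisen when the control was not called in that direction and the Kdm-injected embryos were called away from the control, which held for 243 genes (6.76%). A control difference in the same direction that stayed under the thresholds did not bar a gene from this class. The other 1531 genes (42.6%) were called in Kdm-injected embryos alone but could not be separated from the control, and are named unresolved. Residual, newly arisen and unresolved genes made up 7.07%, 0.942% and 5.94% of all genes tested. In each class, higher and lower genes made up 3.86% and 3.21% of all genes tested when residual, 0.252% and 0.69% when newly arisen, and 1.99% and 3.95% when unresolved. Both comparisons with IVF use the same 4 IVF libraries.

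**Figure D1:**
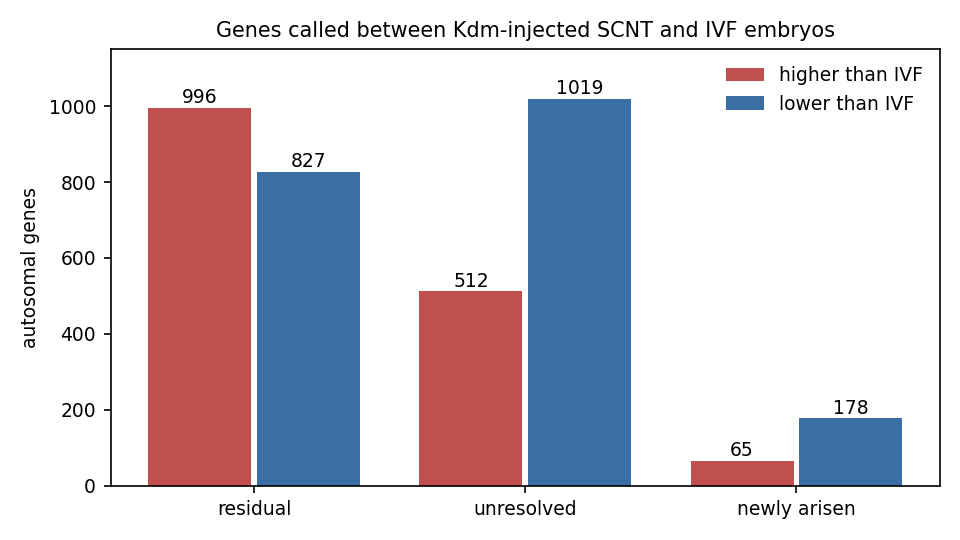
Autosomal genes called between Kdm-injected SCNT and IVF embryos, as counts of genes on the vertical axis. Residual genes were higher at 996 and lower at 827, unresolved genes were higher at 512 and lower at 1019, and newly arisen genes were higher at 65 and lower at 178.

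Most residual genes were not called against the control. Against control SCNT embryos, Kdm-injected embryos were called toward the IVF level at 87 of the 1823 residual genes (4.77%), away from it at 9, and at neither for 1727. The residual class holds only genes still called against IVF, so control differences no longer called after injection lie outside it. Among control differences no longer called after injection, Kdm-injected embryos were called toward IVF against the control at 245 higher and 332 lower genes. The 4.77% is therefore not the share of all control differences that moved toward IVF. The 996 residual genes that were higher had a median log2 fold change of 1.69 against IVF, beside 2.05 in control SCNT embryos. The 827 residual genes that were lower had a median of −1.83, beside −2.06 in the control. The fitted difference was smaller in Kdm-injected embryos than in the control for 73.2% of the higher and 61.9% of the lower residual genes, against 56.5% of all genes tested. Residual genes were chosen partly by the size of the difference in the control, which had only 2 libraries, and all genes tested were not. These medians and shares are therefore partly set by the choice and are no test of a shift toward IVF.

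The 15 SCNT libraries of the other groups were then set beside the same IVF libraries. They were in neither side of these comparisons but shared the fit, its filter, normalization factors and dispersions. All were made with latrunculin A, and only the 2 SCNT-L-cont libraries had no further treatment. The rest had trichostatin A (TSA), which inhibits histone deacetylases, an inhibitor of the H3K9 methyltransferase G9a (RK-701 or A366), or TSA with RK-701, A366 or UNC0638, a further G9a inhibitor. All 15 lay above every IVF library for 513 of the 996 residual genes that were higher (51.5%), against 3.58% of all genes tested. All 15 lay below every IVF library for 462 of the 827 that were lower (55.9%), against 4.3% of all genes. For newly arisen genes these counts were 3 of 65 and 13 of 178 (4.62% and 7.3%). The median of the 15 libraries, however, lay beyond every IVF library for 43 of the 65 and 106 of the 178 (66.2% and 59.6%). This held for 25.8% and 25.4% of all genes tested. For unresolved genes all 15 lay beyond IVF at 79 of 512 higher and 216 of 1019 lower genes (15.4% and 21.2%). Genes of each class were chosen by their difference from these same IVF libraries, and all genes tested were not. The shares are therefore partly set by the choice and are no independent support.

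Among the genes named by size, the residual gene with the largest fold change was *Bfsp1* (chr2:143826528-143863173), which encodes a beaded filament protein of the eye lens. It had no read in any of the 4 IVF libraries. It was at 257 and 157 CPM in control SCNT, 129 and 117 CPM in SCNT-*Kdm3a* and 100 and 111 CPM in SCNT-*Kdm4d* libraries. Every SCNT library of the study held it, with 41.5 to 158 CPM in the other 15. With IVF set to 3 reads in each library, *Bfsp1* was at least 431-fold higher in Kdm-injected embryos (adjusted p = 3.88e-16).

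*Gstm1* (chr3:108012255-108017973), a glutathione S-transferase, was at 4.06, 3.29, 1.36 and 3.77 CPM in IVF libraries. It was at 141 and 236 CPM in SCNT-*Kdm3a* and at 162 and 94 CPM in SCNT-*Kdm4d* libraries. The groups did not overlap, and the log2 fold change was 5.68 ± 0.36 (SE, n = 4 and 4, edgeR adjusted p = 1.46e-11). *Steap3*, a metalloreductase of iron uptake, lay between 0 and 0.14 CPM in IVF and between 4.51 and 12.1 CPM in Kdm-injected libraries, at least 30.6-fold higher. *Pxdn*, *Gng7*, *Chrna2* and *Trpm4* had likewise at most 3 reads in each IVF library and rose by at least 14.1-fold, 14.4-fold, 12.8-fold and 9.76-fold. *Hrh4*, a histamine receptor with no read in IVF, was at least 7.5-fold higher.

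*Slc39a8*, a zinc and manganese transporter, *Slc17a6*, a glutamate transporter, *Lrrk2*, a kinase linked to Parkinson disease, and *Pknox2*, a homeobox gene, completed the 12 genes with the largest rise. Their log2 fold changes lay between 4.69 and 6.03. *Lrrk2* was at 18.2 and 8.98 CPM with *Kdm3a* and at 1.77 and 2.52 CPM with *Kdm4d*, a difference between the mRNAs that did not pass (edgeR adjusted p = 0.0618). All 12 genes were residual. For each of them the lowest Kdm-injected library lay above the highest IVF library. In either direction, the libraries did not overlap at 6718 of all 25792 genes tested. The 12 genes were chosen by fold change, so their separation is partly set by the choice.

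Among the 12 genes with the largest fall, 10 were residual, and transcription factors of later development were among them. *Tbx20* (chr9:24718138-24774303), a T-box factor of the heart, was at 8.9, 9.57, 7.47 and 10.4 CPM in IVF libraries. It had no read in 3 of the Kdm-injected libraries and 0.0806 CPM in the other, and no read in either control library. It was at least 42-fold lower (adjusted p = 9.58e-07). *Sox11* (chr12:27334264-27342574), a factor of neural progenitors, was at 26.1, 9.69, 33 and 11 CPM in IVF and at 0, 0.171, 0 and 0 CPM in Kdm-injected libraries, at least 92.1-fold lower.

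*Gata2*, a zinc finger factor of blood and trophoblast, lay between 7.54 and 13.1 CPM in IVF and between 0 and 0.0855 CPM in Kdm-injected libraries, at least 44-fold lower. *Pou3f1* and *Sox1*, which act in the nervous system, were at least 17.2-fold and 13.9-fold lower. *Trpc1*, a cation channel, *Slco1b2*, an anion transporter of the liver, *Cetn1*, a centrin of male germ cells, and *Igfbp3*, a binding protein of insulin-like growth factors, were at least 27-fold, 25.4-fold, 21.6-fold and 9.96-fold lower. *Mapk8ip2* and *Nptxr* were newly arisen. In the other 15 SCNT libraries the median was 0 CPM for *Tbx20*, *Sox11*, *Pou3f1* and *Sox1*, and 0.995 CPM for *Gata2*.

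**Figure D2:**
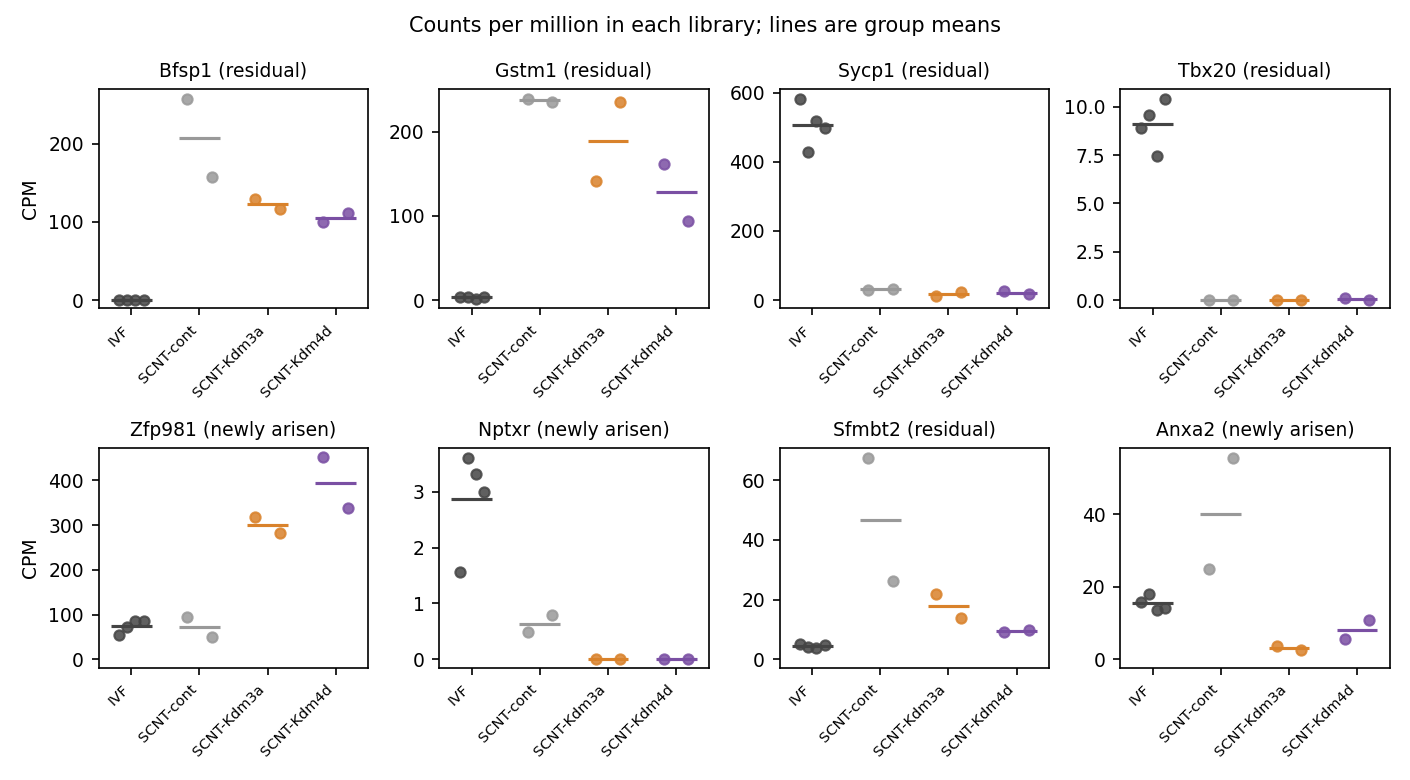
CPM in each library for 8 genes, each panel with its own linear axis, where points are libraries and horizontal lines are group means. *Bfsp1* and *Gstm1* stayed high in all SCNT groups, *Sycp1* and *Tbx20* stayed low in all of them, *Sfmbt2* lay between the control and IVF, *Zfp981* was higher in both injected groups than in IVF and the control, *Nptxr* had no read in any Kdm-injected library, and *Anxa2* lay above IVF in the control and below IVF after injection.

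Since so many developmental regulators stood among the largest falls, 15 families of such factors were counted by gene symbol, a choice made after these values were seen. Of 149 tested members, 50 were lower (33.6%) and 4 were higher (2.68%), beside 9.73% and 6.6% of all 16232 protein-coding genes tested. The median log2 fold change of the families was −1.34, beside −0.09 for all protein-coding genes. The filter averaged reads over all libraries, so a gene without reads in SCNT embryos was tested through its IVF reads alone. Such a gene could only be lower, as with *Foxc2*, which had no read in any SCNT library. The share of lower genes and the median rest partly on such members, and the lists below passed the same filter. The lower genes included 6 of 14 Hox genes, 6 of 14 Sox genes, 5 of 11 T-box genes, 3 of 3 Irx genes and 4 of 26 Fox genes. Of the 50, 26 were residual, 3 were newly arisen and 21 were unresolved, and control SCNT embryos had 30 of the 149 lower than IVF.

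*Pax6*, a regulator of the eye and brain, lay between 5.15 and 9.7 CPM in IVF and between 0 and 1.36 CPM in Kdm-injected libraries. The 4 higher genes were *Klf2*, *Klf12*, *Sox13* and *Pou2f3*. *Klf2*, a Krüppel-like factor, was at 3.84 to 5.78 CPM in IVF and at 12.5 CPM or more in each Kdm-injected library.

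In a list of 46 tested regulators of totipotency and early lineages, 11 were lower (23.9%) and 2 were higher (4.35%). Of all genes tested, 7.85% were lower and 6.1% were higher. *Tbx3*, a T-box factor of pluripotent cells, was at 34.7, 33.5, 39 and 38.8 CPM in IVF and at 0.21, 1.28, 1.05 and 0.42 CPM in Kdm-injected libraries (log2 fold change −5.68 ± 0.57, edgeR adjusted p = 4.43e-08). *Elf3*, *Sox15* and *Esrrb*, factors of epithelium and pluripotency, had log2 fold changes of −3.12, −2.14 and −1.56. *Klf5* and *Tfap2c*, regulators of trophectoderm, were also lower than IVF (log2 fold change −1.13 and −1.33), although *Tfap2c* was called higher than in the control (log2 fold change 1.49, edgeR adjusted p = 0.0184) and *Klf5* was 0.93 above it on the log2 scale (adjusted p = 0.0049, under the fold threshold). The 2 higher genes were *Nr5a2*, an orphan nuclear receptor, and *Dppa2*, a partner in the activation of two-cell genes.

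Genes of the germ line and of meiosis, which somatic cells hold silent largely by DNA methylation, were lower in a larger share than all genes tested (7.85%). Of 69 tested genes, 28 were lower (40.6%) and 3 were higher (4.35%), and the median log2 fold change was −0.89. Of the 28, 22 were residual, and no gene of the list was newly arisen in either direction. The median in control SCNT embryos was −1.01, and the median between Kdm-injected and control embryos was −0.18.

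*Sycp1* (chr3:102818499-102936100), the transverse filament of the synaptonemal complex, was at 582, 428, 517 and 498 CPM in IVF libraries. It was at 30.2 and 32.1 CPM in control SCNT, 11.8 and 22.3 CPM in SCNT-*Kdm3a*, and 25.1 and 17.4 CPM in SCNT-*Kdm4d* libraries. Each SCNT library was far below each IVF library, and the log2 fold change was −4.74 ± 0.35 (SE, n = 4 and 4, edgeR adjusted p = 2.25e-10).

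*Ddx4* (chr13:112598333-112652475), an RNA helicase of germ cells, was at 164, 130, 150 and 157 CPM in IVF and at 9.75, 6.07, 10.3 and 5.18 CPM in Kdm-injected libraries (log2 fold change −4.26 ± 0.26). *Hormad1* (chr3:95559677-95587671), a protein of the meiotic chromosome axis, was at 184, 179, 264 and 181 CPM in IVF, 27.2 and 43.2 CPM in the control, and 18.1, 17.7, 15.9 and 16 CPM in Kdm-injected libraries. It was 1 of the 9 residual genes that had moved further from IVF than the control (log2 fold change −1.06 against the control, adjusted p = 0.0287). *Mael* and *Meioc*, which act in piRNA silencing and in meiotic entry, had log2 fold changes of −2.29 and −3.2.

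To show the letters that were searched for, 100 bases before the RefSeq start (GRCm38.p6, which has the mm10 coordinates) are given for 3 lower genes chosen because they hold CACGTG, namely *Ddx4* (chr13:112652311-112652410, minus strand), *Sycp1* (chr3:102936101-102936200, minus strand) and *Hormad1* (chr3:95559577-95559676, plus strand). They are written 5′ to 3′, and capitals mark CACGTG, a sequence bound by several basic helix-loop-helix factors, and GGCGGGAA, a sequence of E2F type, on either strand.
Ddx4: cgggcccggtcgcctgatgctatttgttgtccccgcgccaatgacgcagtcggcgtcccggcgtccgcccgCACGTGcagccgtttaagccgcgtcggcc
Sycp1: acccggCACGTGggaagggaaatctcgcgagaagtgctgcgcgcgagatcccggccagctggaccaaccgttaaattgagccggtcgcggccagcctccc
Hormad1: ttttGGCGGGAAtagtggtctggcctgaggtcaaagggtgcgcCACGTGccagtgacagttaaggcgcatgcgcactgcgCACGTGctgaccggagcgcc

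Windows from 250 bases before to 50 bases after the start were found for 25 of the 28 germ-line genes that were lower and for 32 of the 38 that were not called. CACGTG occurred in 10 of the 25 (40%) and in 6 of the 32 (18.8%), beside 9.1% of 12537 windows of protein-coding genes tested and 7.15% of all 32851 windows in the reference table. GGCGGGAA occurred on either strand in 7 of the 25 (28%) and in 4 of the 32 (12.5%), beside 3.63% of the protein-coding windows and 2.19% of all windows. Most of the 25 windows held no CACGTG, and the stretch of *Mael* before its start held neither motif. The motifs do not overlap each other, and their presence is a description of these letters.

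*Rpl39l*, a ribosomal protein of male germ cells, was at 138, 151, 181 and 141 CPM in IVF and at 3.67, 2.31, 9.75 and 12.5 CPM in Kdm-injected libraries (log2 fold change −4.71 ± 0.36). *Rpl10l*, another such protein, and *Tuba3b*, a testis tubulin, belong to the germ-line list, with log2 fold changes of −3.94 and −6.04. These genes have near-identical relatives, and the authors counted reads with a single position, so their levels are uncertain. The 3 germ-line genes that were higher were *Rec8*, *Majin* and *Msh4*, with log2 fold changes of 2.84, 2 and 1.14, and all 3 are known from meiotic chromosomes.

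**Figure D3:**
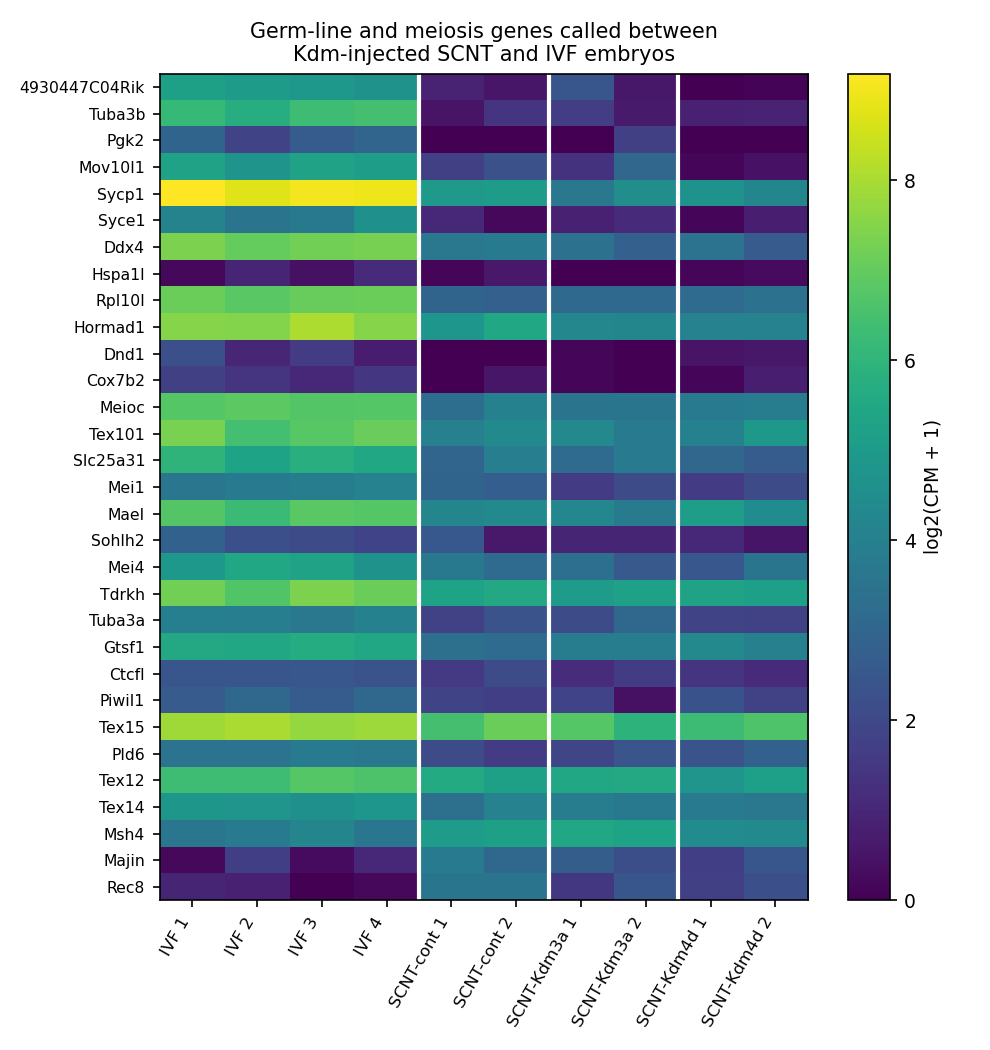
Level of the 31 germ-line and meiosis genes called between Kdm-injected SCNT and IVF embryos, as log2(CPM + 1) in colour, with genes in rows and libraries in columns. The 28 genes above the last 3 rows were higher in IVF libraries, and the last 3 rows, *Msh4*, *Majin* and *Rec8*, were higher in Kdm-injected libraries.

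Some genes whose RNA is stored in the oocyte were lower as well. Among 61 oocyte and maternal genes 12 were lower (19.7%), with a median log2 fold change of −0.57. *Spin1*, a histone reader of the oocyte, was at 6870, 7090, 7530 and 8180 CPM in IVF and at 3300, 2880, 3600 and 3100 CPM in Kdm-injected libraries (log2 fold change −1.2 ± 0.12). *Btg4*, which drives the clearance of maternal RNA, and *Gdf9*, a growth factor of the oocyte, had log2 fold changes of −1.27 and −1.03. *Zar1l* was at 31.1 to 41.7 CPM in IVF, 3.1 and 3.74 CPM in the control and 7.61 to 15.6 CPM in Kdm-injected libraries, which was higher than in the control (adjusted p = 0.0104).

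Of 18 Nlrp and subcortical complex genes, which the oocyte also stores, 9 were lower (50%), with a median of −1. *Nlrp14* was at 612, 693, 814 and 727 CPM in IVF and at 204, 188, 181 and 220 CPM in Kdm-injected libraries (log2 fold change −1.84 ± 0.17, edgeR adjusted p = 6.61e-09). *Nlrp5* and *Tle6*, parts of the subcortical maternal complex, were lower too. With only an adjusted p under 0.05 and no fold threshold, 16 of the 18 and 29 of the 61 were lower. In that setting 3105 of all 25792 genes tested were lower. The oocytes of the IVF and SCNT embryos were of different strains, and the part of this in the maternal values cannot be told apart.

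Imprinted genes are read beside the 6.1% higher and 7.85% lower of all genes tested. The first list held 18 autosomal genes whose maternal copy is silenced by H3K27me3, a form of imprint that SCNT embryos lack. Of these, 6 were higher (33.3%) and 1 was lower (5.56%), with a median log2 fold change of 0.72. The median in the control was 1.23, with 8 higher. *Sfmbt2* was at 5, 4.22, 3.9 and 4.82 CPM in IVF, 67.5 and 26.1 CPM in the control, and 22, 13.9, 9.19 and 9.73 CPM in Kdm-injected libraries. It lay above IVF (log2 fold change 1.55 ± 0.35, adjusted p = 0.00151) and below the control (log2 fold change −1.84, adjusted p = 0.00292). *Mbnl2*, *Slc38a4*, *Bbx*, *Otogl* and *Etv6* were the others that were higher, and *Epas1* was lower. With each mRNA by itself, 2 of the 18 were higher, beside 888 of all 25792 genes tested.

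Of 57 genes imprinted by DNA methylation, 12 were lower (21.1%) and 3 were higher (5.26%), beside 7.85% and 6.1% of all genes tested. *Phlda2*, which restrains placental growth, was at 105, 82.3, 76.8 and 110 CPM in IVF and at 1.36, 2.05, 2.18 and 1.33 CPM in Kdm-injected libraries (log2 fold change −5.77 ± 0.5, edgeR adjusted p = 4.24e-09). *Cdkn1c*, an inhibitor of the cell cycle from the same imprinted region of chromosome 7, had a log2 fold change of −3.42. *Impact*, a regulator of translation, was at 26.1, 29.1, 41.1 and 23 CPM in IVF and at 320, 416, 364 and 261 CPM in Kdm-injected libraries (log2 fold change 3.5 ± 0.23). With each mRNA by itself, 4 of the 57 were lower, beside 716 of all 25792 genes tested.

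Genes of the two-cell stage were mostly not called against IVF after injection. Of 6 *Zscan4* genes, 5 were lower than IVF in the control, and 2 were still lower in Kdm-injected embryos. *Zscan4f* was at 58.9, 34, 66 and 38 CPM in IVF, 0.0968 and 1.35 CPM in the control, and 13.6, 14.4, 14 and 11.3 CPM in Kdm-injected libraries. It was called lower than IVF (log2 fold change −1.89 ± 0.36) and higher than the control (log2 fold change 4.11, adjusted p = 0.000124). *Zscan4a* had log2 fold changes of −1.44 against IVF and 3.17 against the control. *Zscan4d* lay at 157 to 204 CPM in IVF and 63.4 to 138 CPM after injection. It missed only the fold threshold against IVF (log2 fold change −0.96, edgeR adjusted p = 0.0166).

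Of 16 Obox homeobox genes, 11 were lower in the control and 3, *Obox1*, *Obox2* and *Obox5*, were lower in Kdm-injected embryos. *Obox5* was at 376 to 539 CPM in IVF, 161 and 204 CPM in the control, and 176 to 264 CPM in Kdm-injected libraries. *Obox3*, by contrast, lay at 301 to 364 CPM in IVF, 47.3 and 33.7 CPM in the control, and 230 to 387 CPM after injection. The *Zscan4* and Obox genes have near-identical copies, so the level of single members is uncertain. In the wider list of 51 two-cell markers, 3 were higher (5.88%) and 2 were lower (3.92%), beside 6.1% and 7.85% of all genes tested. *Cstf2t* was at 546 to 658 CPM in IVF and 598 to 682 CPM in Kdm-injected libraries. *Eif1a* and *Terb2* were not called (log2 fold change −0.24 and −0.5), and *Cox7b2* was lower (log2 fold change −3.35). *Terb2* missed only the fold threshold (edgeR adjusted p = 0.0321), with 109 to 137 CPM in IVF and 82.2 to 92.9 CPM after injection.

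The genes that the study defined as resistant to reprogramming in SCNT (RRGs) were all tested. Of these, 324 were lower (36.9%) and 5 were higher, the median log2 fold change was −0.87 beside −1.71 in the control, and 238 were residual. With each mRNA by itself 153 were lower, beside 716 of all 25792 genes tested. The study chose these genes as low in SCNT embryos, so their direction is no independent evidence.

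In lists of housekeeping machinery, the shares of higher genes are read beside the 6.1% of all genes. Of 76 ribosomal protein genes 14 were higher (18.4%) and 2 were lower, the latter being *Rpl39l* and *Rpl10l*, and the median log2 fold change was 0.74. Without the fold threshold 61 of the 76 were higher, beside 3082 of all 25792 genes tested. *Rpl14* was at 118, 99.5, 117 and 99.3 CPM in IVF and at 334, 335, 291 and 293 CPM in Kdm-injected libraries (log2 fold change 1.53 ± 0.12, edgeR adjusted p = 5.59e-10). Of these 14 genes, 4 were residual and 10 were unresolved.

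Of 74 genes of oxidative phosphorylation 15 were higher (20.3%) and 2 were lower, and 13 of the 15 were residual. *Atp5k*, a small subunit of ATP synthase, was at 18.9, 25.8, 30.5 and 23.3 CPM in IVF and at 119, 96.9, 91.2 and 92 CPM in Kdm-injected libraries (log2 fold change 2 ± 0.14). Of 56 genes of DNA replication 13 were higher (23.2%), *Mcm3*, *Mcm5*, *Lig1* and *Rfc3* among them, and 2 were lower, namely *Orc5* and *Slbp*. *Orc5*, a subunit of the origin recognition complex, fell from 293 to 338 CPM in IVF to 108 to 151 CPM in Kdm-injected libraries. The median of the replication genes was 0.62 and that of oxidative phosphorylation was 0.46.

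Of 45 proteasome genes 7 were higher (15.6%), as were 5 of 34 heat shock genes (14.7%). Ribosome biogenesis, with 6 of 84 higher (7.14%), and the spliceosome, with 6 of 79 higher (7.59%) and 1 lower, lay near the share of all genes. *Lsm3*, a core protein of U6 RNA, was at 13, 13.4, 17.1 and 15.7 CPM in IVF and at 101, 99.8, 58.7 and 74.5 CPM in Kdm-injected libraries (log2 fold change 2.46 ± 0.19). *Hspa8* and *Hsp90ab1*, abundant chaperones, rose by 1.42 and 1.35 on the log2 scale. *Hspa8* was at 335 to 403 CPM in IVF, 360 and 529 CPM in the control and 844 to 1060 CPM after injection, and was newly arisen.

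Of 30 genes of the ATF4 response 4 were higher (13.3%) and 1 was lower (3.33%), beside 6.1% and 7.85% of all genes tested. *Nupr1*, *Asns* and *Psph* of this list rose by 2.47, 2.61 and 2.18 on the log2 scale, and *Nupr1* lay between 9.38 and 11.2 CPM in IVF, at 172 and 209 CPM in the control and between 31.8 and 96.4 CPM in Kdm-injected libraries. Of 33 p53 target and arrest genes 6 were lower (18.2%). *Pmaip1*, a promoter of apoptosis, was at 46.8, 44.5, 47.4 and 63.7 CPM in IVF, 3.39 and 5.66 CPM in the control, and 1.31, 0.0855, 0.483 and 0.28 CPM in Kdm-injected libraries. Of 40 interferon and RNA sensing genes 8 were lower (20%) and 2 were higher (5%), the latter *Ddx58*, a sensor of viral RNA, and *Ifitm2*. *Ddx58* was at 78.4 and 68.7 CPM with *Kdm3a* and at 18.5 and 32.6 CPM with *Kdm4d*, a difference that passed (adjusted p = 0.0398).

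Of 22 H3K9 methyltransferases and partners, *Ehmt2* and *Smarcad1* were higher and *Setdb2* and *Cbx1* were lower. This was 9.09% in each direction, near the 6.1% higher and 7.85% lower of all genes tested. *Ehmt2*, which encodes G9a, was at 10.1, 9.32, 9.68 and 11.4 CPM in IVF and at 16, 26.2, 26.7 and 25.7 CPM in Kdm-injected libraries (log2 fold change 1.21 ± 0.18). Of 11 H3K9 demethylases, *Kdm4c* was higher (log2 fold change 1.27) and *Jmjd1c* was lower (−1.26), again 9.09% in each direction. Of 25 genes of DNA methylation 4 were higher (16%), namely *Gadd45b*, *Gadd45g*, *Apobec1* and *Apobec3*. Among 33 histone deacetylases and acetyltransferases *Hdac10* was higher and *Kat2a* was lower (3.03% in each direction).

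Among the last lists, 5 of 32 Prame and Oog genes were higher (15.6%) and 4 were lower (12.5%). Of 23 cholesterol genes 3 were higher (13%) and 1 was lower (4.35%). Of 40 actin genes 3 were lower (7.5%), and 1 of 28 replication histone genes was called in each direction (3.57%). Of all genes tested, 6.1% were higher and 7.85% were lower. Of 51 genes abundant in cumulus and granulosa cells 4 were higher and 4 were lower (7.84% each). Their median was 0.14, beside 0.74 and 11 higher in the control. In 10 cases a list had no call in one direction by edgeR; across these, 40 genes had an unadjusted p under 0.05 in that direction, and DESeq2 called 1. *Cyp11a1* had no read in 3 Kdm-injected libraries and 1.47 CPM in the other, and *Has2* had none in the SCNT-*Kdm4d* libraries. These genes do not stand for the whole cumulus list. Its 4 higher members were 3 residual genes and 1 newly arisen gene, and its log2 fold changes ran from −3.78 to 5.45.

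By contrast with the residual genes, the 243 newly arisen genes leaned lower, with 178 below and 65 above IVF. The count rested on the control libraries: without the first control SCNT library 70 genes were newly arisen, 62 of them among the 243. Without the second SCNT-*Kdm4d* library there were 153, and with each mRNA by itself there were 102, so that single members should be read by their values.

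*Zfp981* (chr4:146502027-146539395), a zinc finger gene of a clustered family, had the largest rise of this class. It was at 54.6, 72.1, 84.7 and 85.9 CPM in IVF and at 94.4 and 50.7 CPM in the control. It was at 319 and 283 CPM in SCNT-*Kdm3a* and at 452 and 338 CPM in SCNT-*Kdm4d* libraries, so that no injected library overlapped either group. The log2 fold change was 2.21 ± 0.24 against IVF (edgeR adjusted p = 1.18e-07) and 2.25 against the control (adjusted p = 6.67e-05). The other 15 SCNT libraries ran from 38.1 to 399 CPM with a median of 101.

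Of 56 genes named *Zfp900* to *Zfp999*, 11 were higher (19.6%) and 1 was lower, and 5 of the 11 were newly arisen. These were *Zfp981*, *Zfp976*, *Zfp977*, *Zfp938* and *Zfp960*. *Zfp977* was at 99.6, 62.5, 77.8 and 61.1 CPM in IVF, 38.2 and 39 CPM in the control, and 188, 217, 188 and 204 CPM in Kdm-injected libraries. *Zfp976*, *Zfp977* and *Zfp975* are neighbours on chromosome 7, in a run of 5 consecutive tested genes (42561414 to 42692742) that were all higher, 3 of them newly arisen. These genes resemble each other, and reads with several positions were not counted.

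The other newly arisen genes with the largest rise were *Ankmy2*, *Ldah*, *Pramel4* and *Ttc30a1*. *Ankmy2* was at 28.4 to 44.3 CPM in IVF, 51.5 and 79.4 CPM in the control and 103 to 172 CPM in Kdm-injected libraries (log2 fold change 2.01 ± 0.18). The control was already above IVF for *Ankmy2* (log2 fold change 0.9, edgeR adjusted p = 0.00275), under the fold threshold. *Ldah*, a hydrolase of lipid droplets, *Pramel4*, of the Prame family, and *Ttc30a1*, a part of the cilium transport machinery, rose by 1.71, 1.64 and 1.59 on the log2 scale. *Dppa2* and *Gja1* also belonged to this class. *Gja1*, the gap junction protein connexin 43, was at 79.3 to 94.7 CPM in IVF, 79.2 and 97.6 CPM in the control and 184 to 279 CPM after injection.

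*Nptxr* (chr15:79786351-79804766), a pentraxin receptor of neurons, was at 1.56, 3.6, 3.31 and 3 CPM in IVF and at 0.484 and 0.797 CPM in the control, and had no read in any Kdm-injected library. It was at least 13.3-fold lower than in IVF. *Mapk8ip2*, a scaffold of JNK signalling, was at 2.42 to 4.03 CPM in IVF and 0.484 and 0.319 CPM in the control, with no read after injection, at least 14.5-fold lower. *Zfp503*, *Nnat* and *Ankrd34c* were at least 23.7-fold, 7.97-fold and 5.18-fold lower than in IVF. For *Nptxr*, *Mapk8ip2* and *Zfp503* each control library already lay below every IVF library. Their log2 fold changes in the control were −2.15, −2.95 and −1.9, which did not pass (edgeR adjusted p = 0.099, 0.0871 and 0.0604). *Ankrd34c* was at 0 and 2.23 CPM in the control, so that its class rests on 1 control library. *Gal*, the neuropeptide galanin, had a log2 fold change of −5.95 and was at 0 and 0 CPM with *Kdm3a* and at 0.645 and 0.42 CPM with *Kdm4d*.

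*Vim*, *Tagln2*, *Serpine2* and *Anxa2*, the 4 lower genes of the cumulus list, were lower than in IVF and not called, or called higher, in the control. *Anxa2*, a membrane-binding annexin, was at 15.9, 18.1, 13.7 and 14.2 CPM in IVF, 24.8 and 55.6 CPM in the control, and 3.67, 2.65, 5.48 and 10.9 CPM in Kdm-injected libraries. The imprinted genes *Peg3*, *Plagl1* and *Nnat* were newly lower as well (log2 fold change of *Peg3* −1.22 ± 0.33).

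*Anxa2* was 1 of 11 newly arisen genes that the control showed in the opposite direction, so that the pooled level crossed that of IVF. The other lower ones were *Tmem37*, *Yod1*, *Zfp36l1*, *Tbc1d4* and *Tmem141*. Injected libraries overlapped IVF libraries for *Tmem37*, *Zfp36l1* and *Tbc1d4*, and for *Gm8016*, which crossed upward. With *Kdm4d*, *Tmem37* was at 2.74 and 4.69 CPM, within its IVF range of 1.56 to 9.1 CPM. *Zfp36l1* was at 2.42 and 1.33 CPM with *Kdm4d*, within its IVF range of 1.3 to 3.9 CPM. *Yod1*, a deubiquitinase, was at 29.7 to 47.2 CPM in IVF, 56.3 and 96.2 CPM in the control and 9.69 to 21.6 CPM in Kdm-injected libraries. *Usp17lb*, a deubiquitinase of a multicopy family, crossed upward, with 631 to 857 CPM in IVF, 102 and 276 CPM in the control and 1310 to 2140 CPM after injection, as did 4 genes known by Gm numbers.

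The 9 residual genes that had moved further from IVF than the control were all lower, namely *Cstb*, *Actn1*, *H2-K1*, *Pmaip1*, *Ostf1*, *Id1*, *Hormad1*, *Zfp800* and *Nrip3*. *Id1*, an inhibitor of basic helix-loop-helix factors, was at 15.9, 13.8, 13 and 15.6 CPM in IVF, 4.36 and 4.46 CPM in the control, and 0.472, 0.77, 1.53 and 1.68 CPM in Kdm-injected libraries. *Cstb*, a cysteine protease inhibitor, was at 91.4 to 118 CPM in IVF, 38.5 and 39.3 CPM in the control, 3.62 and 5.05 CPM with *Kdm3a*, and 22.6 and 31.7 CPM with *Kdm4d*, and the mRNAs differed (edgeR adjusted p = 0.00628). *H2-K1*, a class I histocompatibility gene, was at 0.105 and 0 CPM with *Kdm3a* and at 5.4 and 1.96 CPM with *Kdm4d*, and differed likewise.

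The 87 residual genes that moved toward IVF held 54 that were higher and 33 that were lower than IVF. *Col27a1*, a collagen, was at 29 and 27.5 CPM in the control, 1.61 to 4.19 CPM after injection and 0 to 0.435 CPM in IVF. *S100a11*, a calcium-binding protein, was at 23.5 and 10.2 CPM in the control, 0.734 to 2.82 CPM after injection and 0.26 to 0.559 CPM in IVF. These genes were picked after their values were seen.

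**Figure D4:**
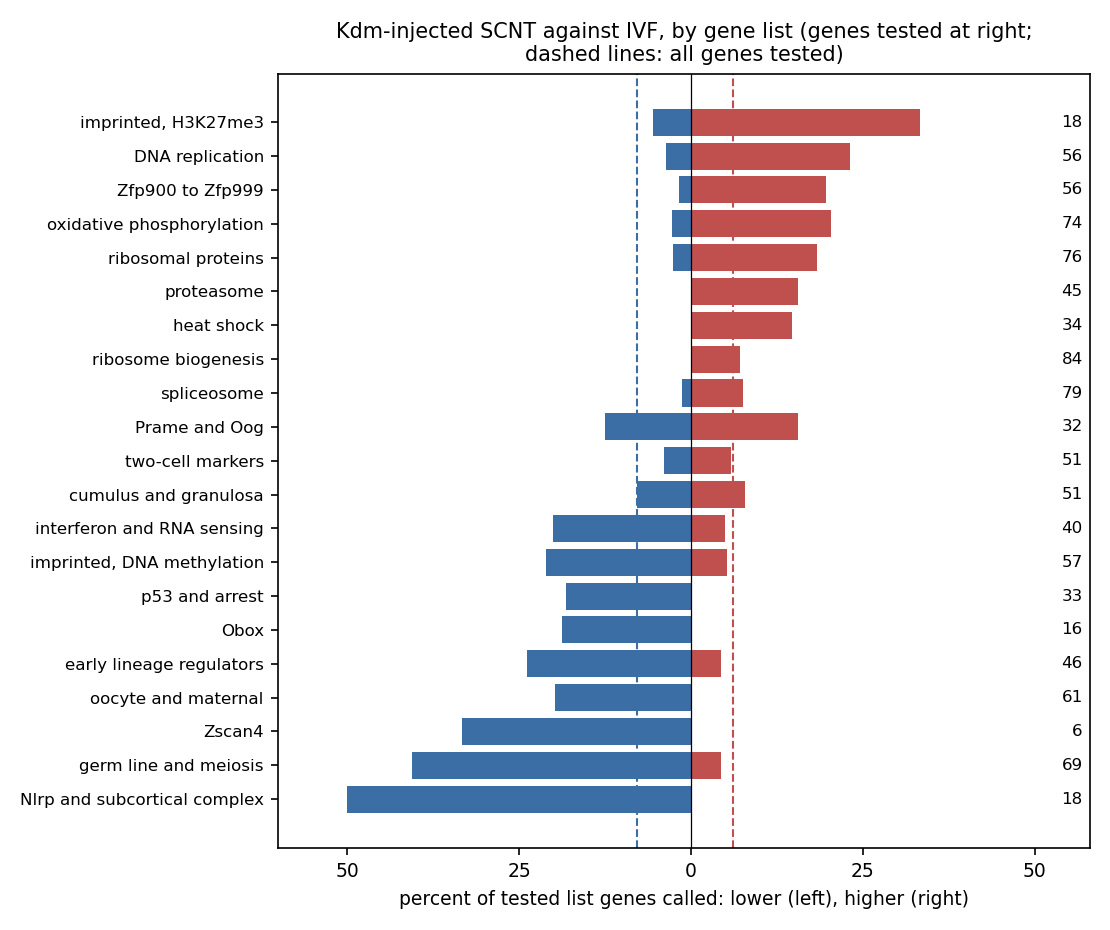
Percentage of the tested genes of 21 lists that were called lower (bars to the left) or higher (bars to the right) in Kdm-injected SCNT than in IVF embryos, with the number tested at the right. Dashed lines mark all genes tested (7.85% lower and 6.1% higher), and the germ-line and Nlrp lists reach 40.6% and 50% lower.

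By gene type, called genes were more often protein coding than the genes tested. Protein-coding genes were 62.9% of all genes tested, 72.2% of the higher and 77.5% of the lower residual genes, and 88.2% of the lower newly arisen genes. Small nucleolar RNA genes were higher at 24 of 199 (12.1%) and lower at 2, and *Snord47* and *Snord78* on chromosome 1 lay in a run of 5 consecutive higher genes. Residual genes were spread over all autosomes, from 5.77% of the genes tested on chromosome 14 to 8.1% on chromosome 4. Counts were made without regard to strand, so antisense and overlapping genes of such runs cannot be told apart.

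The level in IVF differed between the directions. The lower residual genes had a median of 17.8 CPM in IVF and 5.27 CPM in Kdm-injected embryos, and the higher ones 2.31 and 8.12 CPM. All Kdm-injected libraries were at or below 3 reads for 67 of the 827 lower residual genes (8.1%) and for 275 of the 1019 lower unresolved genes (27%).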

How the data were processed

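The authors deposited raw read counts for each gene. Per the study's methods, reads of SMART-Seq HT libraries were trimmed with Trimmomatic and aligned to mm10 with STAR, and featureCounts counted uniquely mapped pairs without regard to strand. A table of 55375 genes in 25 libraries was used, 55134 of which matched GENCODE M21, with 0 columns that belong to no sample; transposable element counts (1755056 features) were not analysed here. Such counting loses reads of near-identical genes.

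Groups came from the sample labels, which give no batch or date. Genes on autosomes that averaged 1 read or more were tested on the counts with edgeR 4.0.16 (TMM factors, quasi-likelihood test, R 4.3.3) in 1 fit of 11 groups (common dispersion 0.136), with Benjamini-Hochberg adjustment over 25792 genes. The Kdm-injected level was the mean of the SCNT-*Kdm3a* and SCNT-*Kdm4d* terms. Genes were called at an adjusted p under 0.05 and a fold change over 2. Where each library of the lower group held at most 3 reads, the fold is a lower bound with 3 reads set in each library. Floors cover counting error only. Nothing in the labels says that libraries of a group came from separate experiments, so p-values measure the spread between these pools, which may be partly technical.

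The genes named by size were, for all calls, the 12 protein-coding genes with the largest fold change in each direction, and 6 in each direction for residual and for newly arisen genes, where no library of the higher group held fewer than 10 reads and with no clone or Gm number as name. Members of 29 gene lists, the study's RRGs as a further list, and genes that the study names were added. Results of a few genes are not reported here. The members and lists were chosen with earlier results of these data known. The developmental families, the genes that crossed the IVF level and those that moved away from or toward it were chosen after the values were seen. Scripts were tested on simulated data. Promoter windows came from RefSeq (GRCm38.p6). Alternatives were DESeq2 1.42.0, RLE factors, other filters, sample sets and thresholds, a replicate block, and leaving out each library. Figures were drawn with matplotlib 3.10.9.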

Additional observations from a re-analysis of the deposited data

Results flagged for a closer look

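Among 290 groups of 4 libraries, for 145 genes, 29 had 1 library that stood apart from the other 3 by Dixon's criterion, of which chance gives about 1 in 20. In 10 of these the other libraries held at most 0.105 CPM and the library apart was also low, namely *Pxdn* in IVF libraries (0.156 CPM), *Chrna2* in IVF libraries (0.468 CPM), *Slc17a6* in IVF libraries (0.489 CPM), *Tbx20* in Kdm-injected libraries (0.0806 CPM), *Cyp11a1* in IVF libraries (0.156 CPM), *Trpc1* in Kdm-injected libraries (0.157 CPM), *Cox7b2* in Kdm-injected libraries (0.7 CPM), *Slc39a8* in IVF libraries (0.26 CPM), *Sox11* in Kdm-injected libraries (0.171 CPM), *Nnat* in Kdm-injected libraries (0.0524 CPM). Among IVF libraries, *Igfbp3* had one at 0.621 CPM beside 2.47 to 2.81 CPM, *Esrrb* had one at 23.9 CPM beside 16.9 to 17.9 CPM, *Pmaip1* had one at 63.7 CPM beside 44.5 to 47.4 CPM, *Ostf1* had one at 9.94 CPM beside 12.7 to 13.3 CPM, *Hormad1* had one at 264 CPM beside 179 to 184 CPM, *Asns* had one at 6.71 CPM beside 2.58 to 3.25 CPM, *Zfp800* had one at 51 CPM beside 38.8 to 40.3 CPM, *Dppa3* had one at 6820 CPM beside 5840 to 5920 CPM, *Klf2* had one at 3.84 CPM beside 5.46 to 5.78 CPM, *Ifitm2* had one at 2.02 CPM beside 0.312 to 0.497 CPM. Among Kdm-injected libraries, *Ehmt2* had one at 16 CPM beside 25.7 to 26.7 CPM, *S100a11* had one at 0.734 CPM beside 2.52 to 2.82 CPM, *Tfap2c* had one at 14 CPM beside 20.9 to 21.8 CPM, *Cyp11a1* had one at 1.47 CPM beside no read in the others, *Mcm3* had one at 62.4 CPM beside 85.7 to 89.4 CPM, *Zar1l* had one at 15.6 CPM beside 7.61 to 8.94 CPM, *Ifitm2* had one at 19.9 CPM beside 2.26 to 3.25 CPM, *Tuba3b* had one at 2.15 CPM beside 0.599 to 0.84 CPM, *Sox13* had one at 24.7 CPM beside 14.8 to 16.3 CPM.

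Of the same 145 genes, 6 differed between SCNT-*Kdm4d* and SCNT-*Kdm3a* embryos (edgeR adjusted p under 0.05). *Cstb* was higher with *Kdm4d* by a log2 fold change of 2.66 (adjusted p = 0.00628), *Serpine2* by 2.17 (adjusted p = 0.0155) and *Zfp36l1* by 4.14 (adjusted p = 0.0398). *H2-K1* had a fitted log2 fold change of 5.65 (adjusted p = 0.00628), against SCNT-*Kdm3a* libraries at 0.105 and 0 CPM. *Ddx58* and *Zfp352* were lower with *Kdm4d*, with log2 fold changes of −1.52 (adjusted p = 0.0398) and −1.31 (adjusted p = 0.018).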

How the results depend on the processing

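Of 22 alternatives, all but the requirement that each mRNA pass gave values for single genes. Of these, 713 of 714 values of the 34 genes named by size kept their direction and their side of the threshold, the exception being *Cetn1*, which DESeq2 did not call (log2 fold change −8.54, adjusted p = 0.218). Without a fold threshold 6187 genes differed between Kdm-injected and IVF embryos, with 3114 residual, 645 newly arisen and 564 list members, 2189 genes differed from the control, and SCNT-*Kdm3a* and SCNT-*Kdm4d* embryos alone differed from IVF at 4958 and 3724. When each mRNA had to pass, the counts were 1604, 1125 residual, 102 newly arisen and 148 list members. With the latrunculin A control added to the control, 1925 genes differed between Kdm-injected and control embryos. DESeq2 called 3702 genes, 1995 residual and 299 newly arisen, and gave no adjusted p for 4003. RLE factors gave 3651 and moved the median log2 fold change of all genes from −0.06 to −0.116. Leaving out 1 library at a time gave 2891 to 3660 genes called, 1337 to 1757 residual, 70 to 259 newly arisen, 214 to 246 list members, 321 to 1472 against the control, 2614 to 3969 for the control against IVF, 2322 to 3352 for SCNT-*Kdm3a* and 1324 to 2463 for SCNT-*Kdm4d*. The lowest newly arisen count and the 321 came without SCNT-cont replicate 1, and the 1324 without SCNT-*Kdm4d* replicate 2, where replicate 1 left out gave 1594; a lone library is then assumed to vary like the other groups. The causes were not tested. Deviations of same-numbered libraries correlated between −0.26 and 0.16 over 10174 genes. The values were negative for each pair with IVF and positive for each pair of SCNT groups. With 2 libraries in each of these SCNT groups the deviations mirror each other, so pairing by replicate number was neither shown nor excluded. With the number as a block 2608 genes were called, 1327 residual and 171 newly arisen. Of the other counts, 1395 of 1602 stayed within 1.5 times and 0 reversed. Genes near 3 reads have no upper limit of their fold at this depth.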
